A study of Homo sapiens with 7 samples.

Results

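Type I interferon-stimulated genes are the genes that a cell switches on when interferon alpha or beta binds its receptor. A list of 46 such genes was followed on all 7 arrays of the study, and 44 of the 46 had a probe that the array annotation ties to them alone, out of 18417 genes measured in this way. STAT2 and GBP1, the other members listed, are not analysed here. The list is a set of named genes, chosen with earlier results of these data known.

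The cells were SUM159, a mesenchymal triple-negative breast cancer line grown as a monolayer. They carried a lentiviral, doxycycline-inducible hairpin, and all groups received doxycycline for 15 days: SHP2 sh2 (3 arrays) and SHP2 sh1 (2 arrays) expressed 1 of 2 hairpins against SHP2, and Ctrl shRNA (2 arrays) expressed a control hairpin. SHP2 is the tyrosine phosphatase encoded by PTPN11. Each value is the log2 brightness of a probe set on a Human Gene 1.0 ST array after robust multi-array averaging (RMA), so that a difference of 1 stands for a 2-fold difference. All groups come from a single cell line, and nothing says that arrays sharing a group are separate cultures, so a p-value here measures only how far these arrays scatter, technical scatter included.

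In the textbook pathway, interferon alpha and beta bind a receptor made of IFNAR1 and IFNAR2, and the kinases JAK1 and TYK2 bound to it phosphorylate STAT proteins. STAT2 with a partner STAT and IRF9 forms a complex that binds the interferon-stimulated response element, a short DNA motif in front of many antiviral genes. The genes it drives sense viral RNA, block entry and translation of viruses, and attach the small protein ISG15 to other proteins, and some tumour lines keep them on without infection.

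The response element is shown first because it is read from DNA sequence and not from the arrays. It is the element described above for genes of this kind, so its frequency among the members is not separate evidence about them. Its core was searched as GAAANNGAAA, or TTTCNNTTTC on the other strand, in RefSeq promoter windows of GRCh38.p14 that run 250 bases before to 50 bases after an annotated start. Of the 46 genes, 39 had a window, and 26 of those (66.7%) held the core, against 4.38% of the 27305 gene symbols in the table and 3.57% of its 35116 windows. The gamma-activated site TTCNNNGAA, which binds STAT dimers, was in the windows of 13 members (33.3%), against 9.38% of all symbols and 7.66% of all windows. Both motifs lay in 154 windows of the table and overlapped in 22 of them. These matches are descriptions of sequence and not evidence of binding. The stretches below hold the cores that lie before the start, in capitals, with 20 bases on each side, 5′ to 3′ on the gene's strand. The first 6 belong to the members of smallest p in SHP2 sh2 against Ctrl shRNA that hold a core there, IFI44L had the most negative difference, and ISG15 had a difference close to 0.
BST2: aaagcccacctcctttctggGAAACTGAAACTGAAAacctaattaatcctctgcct
IFITM1: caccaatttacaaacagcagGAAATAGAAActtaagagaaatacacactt
MX1: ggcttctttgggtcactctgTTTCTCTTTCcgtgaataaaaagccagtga
IFI27: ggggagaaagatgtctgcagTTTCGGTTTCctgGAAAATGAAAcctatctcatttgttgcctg
SAMD9: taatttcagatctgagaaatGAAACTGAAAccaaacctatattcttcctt
PARP9: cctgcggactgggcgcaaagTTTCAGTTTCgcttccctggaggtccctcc
IFI44L: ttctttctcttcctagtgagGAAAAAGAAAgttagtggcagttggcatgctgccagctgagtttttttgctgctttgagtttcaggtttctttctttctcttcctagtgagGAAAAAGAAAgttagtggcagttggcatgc
ISG15: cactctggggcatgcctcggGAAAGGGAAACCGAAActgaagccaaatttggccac
They lie at chr19:17405725-17405780 (minus strand), chr11:313980-314029 (plus), chr21:41431834-41431883 (plus, 1 of 3 annotated windows), chr14:94110608-94110670 (plus, 1 of 2), chr7:93118086-93118135 (minus), chr3:122564312-122564361 (minus, 1 of 2), chr1:78620264-78620404 (plus) and chr1:1013364-1013419 (plus). BST2 and ISG15 both carry overlapping cores, in which a repeated GAAA occurs at a spacing of 2 bases. The core nearest the start ends 114 bases before it in BST2 and 97 bases before it in ISG15.

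The targeted gene was read first. PTPN11 had log2 values of 7.96, 7.20 and 7.89 with SHP2 sh2, 7.90 and 6.93 with SHP2 sh1 and 9.53 and 9.18 with Ctrl shRNA, and all 5 SHP2 arrays lay below both controls. SHP2 sh2 replicate 2 and SHP2 sh1 replicate 2 stood apart from the rest: across all genes they correlated with the other 5 arrays at 0.886 to 0.936 and 0.930 to 0.965, against 0.982 to 0.992 among those 5. On these 2 arrays bright genes read lower and dim genes higher than in the controls: the brightest 25% of genes had a median of -1.01 on SHP2 sh2 replicate 2 and -0.61 on SHP2 sh1 replicate 2, and the dimmest 25% 0.53 and 0.26. Of the 44 interferon-stimulated genes, 29 belong to those bright genes, and the main counts are given with and without SHP2 sh2 replicate 2. The 7 mesenchymal markers listed had a median level of 10.2 to 10.8 on SHP2 sh2 arrays, 11.1 on both SHP2 sh1 arrays and 11.1 to 11.3 on Ctrl shRNA arrays. On every array this median was the value of SNAI2 itself. Gene by gene, the 7 markers had a median difference of -0.31 with SHP2 sh2, and of 0.13 without SHP2 sh2 replicate 2. Among them SNAI2, a transcription factor of the mesenchymal state, read 10.26, 10.18 and 10.81 with SHP2 sh2, 11.09 and 11.14 with SHP2 sh1 and 11.12 and 11.32 with Ctrl shRNA, with the SHP2 sh2 arrays below both controls. The 8 epithelial markers had a median level of 5.72 to 6.92 on SHP2 sh2 arrays, 5.65 to 6.80 on SHP2 sh1 arrays and 5.51 to 5.60 on Ctrl shRNA arrays. Gene by gene, the 8 markers had a median difference of 0.27 with SHP2 sh2, and of 0.14 without SHP2 sh2 replicate 2. Of the 8, 6 were above 0, and the keratin genes KRT8 (-0.23) and KRT18 (-0.26) were below. KRT8 was at 9.73 or higher on all arrays. CDH1, which encodes E-cadherin, had the largest difference, 1.06 (0.65 without SHP2 sh2 replicate 2). It read 6.21, 7.12 and 5.61 with SHP2 sh2, 5.16 and 7.42 with SHP2 sh1 and 5.32 and 5.19 with Ctrl shRNA. Its SHP2 sh2 arrays lay above both controls, against 24.2% of all genes. The part of these marker differences in the results below was not tested. Of 9 immune cell markers listed, 8 were measured, with a median level of 5.22 to 5.83 on SHP2 sh2 arrays, 5.10 to 5.37 on SHP2 sh1 arrays and 5.09 to 5.11 on Ctrl shRNA arrays, and the pan-leukocyte gene PTPRC was at 3.90, 4.16 and 4.36 with SHP2 sh2, 4.38 and 4.75 with SHP2 sh1 and 4.16 and 4.04 with Ctrl shRNA. With SHP2 sh2 all 8 immune cell markers had a difference above 0, against 10527 of all 18417 genes. The median was 0.32, and 0.18 without SHP2 sh2 replicate 2. In 6 of them all SHP2 sh2 arrays lay above both controls, against 24.2% of all genes. NCAM1 had the largest difference, 0.60, and PTPRC the smallest, 0.04. The dimmest 25% of genes ended at 5.74, and their median difference with SHP2 sh2 was 0.23.

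With SHP2 sh2 the interferon-stimulated genes were lower as a group. Of the 44 members, 39 had a log2 difference below 0 against Ctrl shRNA, compared with 42.8% of all genes, and the median difference was -1.22, compared with 0.09 for all genes. A total of 28 members were 2-fold or more lower, against 2.94% of all genes. That count was lower without SHP2 sh2 replicate 2, where the differences of 36 of the 44 members were smaller. In 33 members all 3 SHP2 sh2 arrays lay below both Ctrl shRNA arrays, against 16.1% of all genes, and in 0 members all 3 lay above both, against 24.2% of all genes. In the brightest 25% alone, 26 of 29 members had this order, against 34.9% of the genes there, with a median difference of -1.44 for the members and -0.42 for all genes there. In bulk RNA, fewer expressing cells and less RNA per cell cannot be told apart.

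No gene passed the test in this comparison. In limma's moderated test, with Benjamini-Hochberg adjustment over all 18417 genes, 0 of the 44 members and 0% of all genes had an adjusted p under 0.05, and the adjusted p was 0.667 for each of the 39 members below 0. At an unadjusted p under 0.05 there were 432 genes, and 13 members, all of them lower, against 1.81% of all genes that were lower at that level. The count of members depended on the arrays in the fit. It was 5 without SHP2 sh2 replicate 2 (1.11% of all genes), 9 without replicate 1 (1.52%) and 12 without replicate 3 (2.93%). It was 7 without Ctrl shRNA replicate 1 (0.939%) and 3 without Ctrl shRNA replicate 2 (0.396%). Without either SHP2 sh1 array it was 29 (2.37%), without both arrays that stood apart 30 (6.12%), and with the replicate number as a block 33 (14.7%). With 3 arrays against 2, an exact two-sided permutation test of 1 gene cannot give a p below 0.2. With gene-by-gene array weights, which gave SHP2 sh2 replicate 2 a weight of 0.116 and replicate 1 a weight of 6.73, the same limma test called 122 genes (0.662%), 10 of the 44 members among them: BST2, HERC6, IFI27, IFI44L, MX1, MX2, OAS2, PARP9, SAMD9 and SAMD9L, all lower. The weights were estimated from these same arrays. With them, 4689 genes had an unadjusted limma p under 0.05, against 432 in the main fit. Without SHP2 sh2 replicate 2, the median of the 44 was -0.88, compared with 0.03 for all genes, 43 members were below 0, and 35 had both remaining SHP2 sh2 arrays below both controls, against 17.9% of all genes. Among the brightest 25%, 26 of 29 members kept that order on these arrays, against 35.7% of its genes, and the medians were -1.16 and -0.11.

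**Figure D1:**
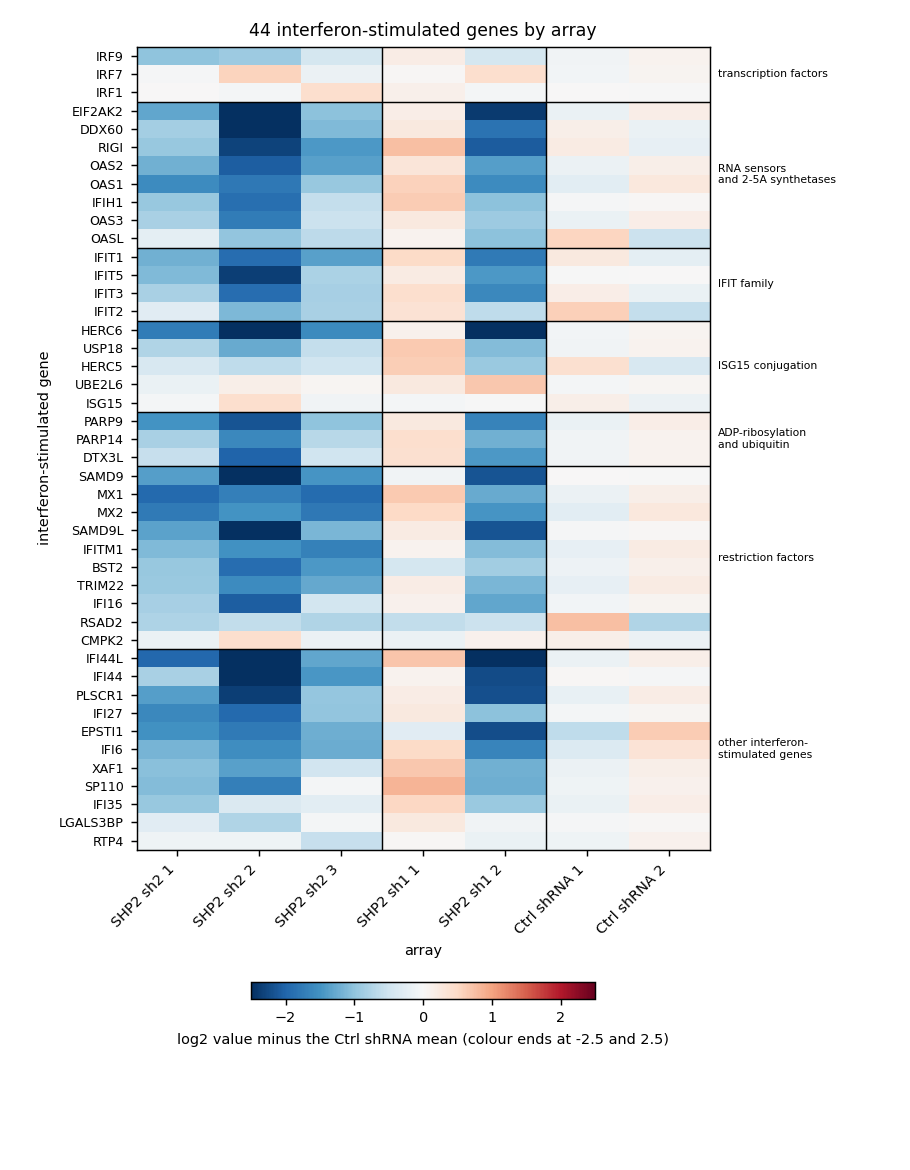
Log2 value minus the mean of the Ctrl shRNA arrays for the 44 interferon-stimulated genes (rows, grouped by role and sorted by the SHP2 sh2 difference) on each of the 7 arrays (columns, with replicate numbers); blue is lower and red higher than the control mean, and the colour scale ends at -2.5 and 2.5. The SHP2 sh2 columns and SHP2 sh1 replicate 2 are mostly blue, and SHP2 sh1 replicate 1 is mostly pale red.

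Of the transcription factors on the list, IRF9 was lower with SHP2 sh2, and IRF7 and IRF1 were close to their control levels. IRF9, the DNA-binding subunit of the complex that reads the response element, had log2 values of 8.02, 8.12 and 8.58 with SHP2 sh2, 9.22 and 8.59 with SHP2 sh1 and 8.94 and 9.11 with Ctrl shRNA. All 3 SHP2 sh2 arrays were below both controls, and the difference was -0.79 ± 0.28 (SE). IRF7, which amplifies interferon production in infected cells, had values of 7.50, 8.07 and 7.38 with SHP2 sh2, 7.55 and 7.95 with SHP2 sh1 and 7.45 and 7.60 with Ctrl shRNA, so the groups overlapped, with a difference of 0.13 ± 0.27 (-0.08 without SHP2 sh2 replicate 2). IRF1, a factor best known from the response to interferon gamma, read 7.54, 7.49 and 7.95 with SHP2 sh2, 7.66 and 7.48 with SHP2 sh1 and 7.54 and 7.53 with Ctrl shRNA, with a difference of 0.13 ± 0.21 (0.21 without SHP2 sh2 replicate 2). IRF1 and IRF7 thus stayed within 0.55 of their control means on every array of the study.

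The sensors of viral RNA and the oligoadenylate synthetases were lower with SHP2 sh2 in all 8 cases, against 42.8% of all genes. Their median difference was -1.49. In 7 of them all SHP2 sh2 arrays were below both controls, against 16.1% of all genes. OAS2, a synthetase whose product activates RNase L, had log2 values of 8.79, 7.92 and 8.62 with SHP2 sh2, 10.30 and 8.61 with SHP2 sh1 and 9.85 and 10.13 with Ctrl shRNA. Its SHP2 sh2 arrays were separate from the controls, with a difference of -1.54 ± 0.52. Its relatives had the same order: OAS1 read 6.99, 6.78 and 7.61 with SHP2 sh2, 9.15 and 7.0 with SHP2 sh1 and 8.29 and 8.84 with Ctrl shRNA, a difference of -1.44 ± 0.62. OAS3 read 8.38, 7.45 and 8.67 with SHP2 sh2, 9.45 and 8.30 with SHP2 sh1 and 9.03 and 9.37 with Ctrl shRNA, a difference of -1.03 ± 0.47 that was -0.68 without SHP2 sh2 replicate 2.

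RIGI, the helicase that recognises viral RNA ends in the cytosol, had values of 7.77, 6.41 and 7.28 with SHP2 sh2, 9.48 and 6.65 with SHP2 sh1 and 8.92 and 8.53 with Ctrl shRNA. The SHP2 sh2 arrays were again below both controls (-1.57 ± 0.81), and SHP2 sh2 replicate 2 was the lowest of all 7 arrays. EIF2AK2, the kinase that stops translation when it binds double-stranded RNA, read 8.29, 6.48 and 8.56 with SHP2 sh2, 9.76 and 7.19 with SHP2 sh1 and 9.42 and 9.76 with Ctrl shRNA, a difference of -1.81 ± 0.88 that was -1.16 without SHP2 sh2 replicate 2. IFIH1, the sensor of long double-stranded RNA, and DDX60, a related helicase, differed by -1.14 ± 0.56 and -1.61 ± 0.78, and by -0.77 and -0.98 without that array. OASL, which lacks synthetase activity, was the member of this group whose arrays overlapped, at 8.26, 7.51 and 7.85 with SHP2 sh2, 8.60 and 7.47 with SHP2 sh1 and 9.04 and 7.97 with Ctrl shRNA.

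The 4 IFIT genes, which encode RNA-binding proteins that hinder translation of viral messages, had a median difference of -1.30. IFIT1 read 7.19, 6.49 and 7.04 with SHP2 sh2, 8.87 and 6.64 with SHP2 sh1 and 8.64 and 8.16 with Ctrl shRNA, a difference of -1.50 ± 0.62. IFIT5 read 6.84, 5.59 and 7.16 with SHP2 sh2, 8.16 and 6.52 with SHP2 sh1 and 7.94 and 7.97 with Ctrl shRNA, a difference of -1.42 ± 0.61. For IFIT3 the values were 7.11, 6.0 and 7.09 with SHP2 sh2, 8.33 and 6.31 with SHP2 sh1 and 8.09 and 7.75 with Ctrl shRNA, a difference of -1.18 ± 0.63. In these 3 genes the SHP2 sh2 arrays lay below both controls, against 16.1% of all genes. IFIT2 differed by -0.73 ± 0.47, and its Ctrl shRNA arrays, at 7.44 and 6.26, were themselves further apart than the difference.

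**Figure D2:**
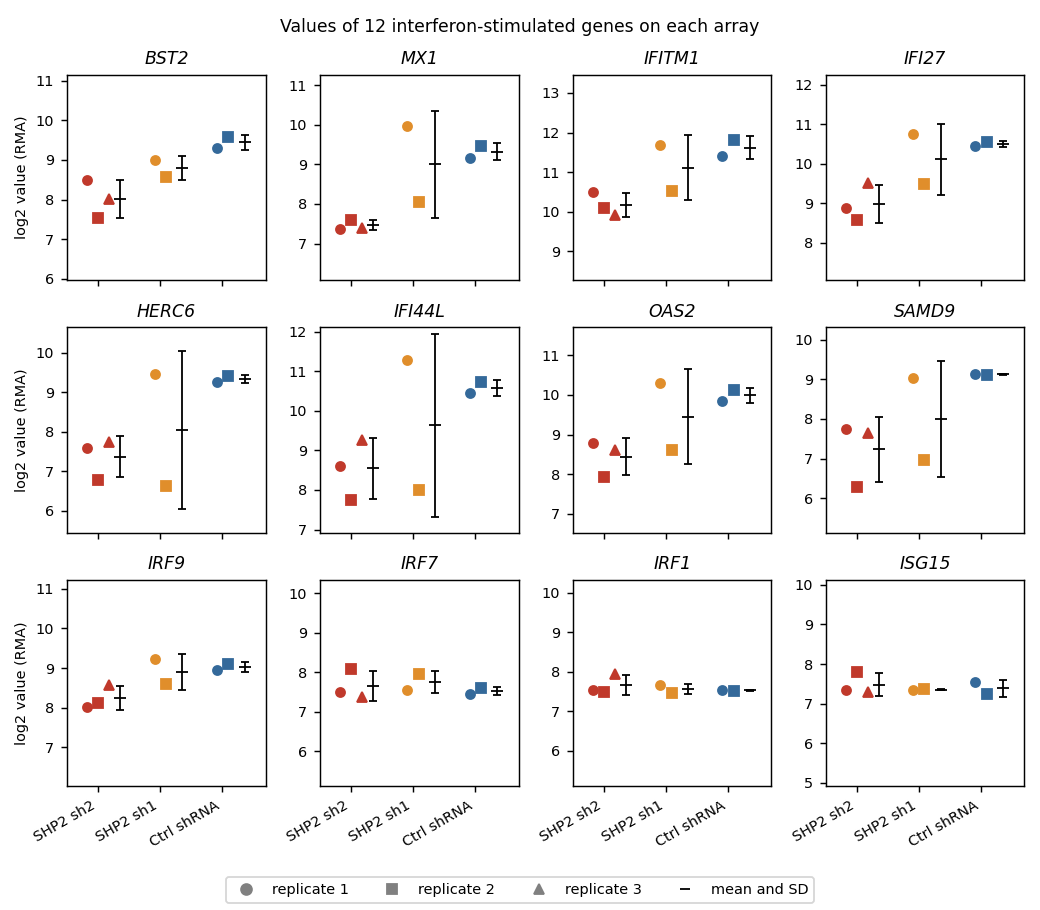
Log2 RMA values (y axis, the same span in each panel) of 12 interferon-stimulated genes with SHP2 sh2, SHP2 sh1 and Ctrl shRNA (x axis); symbols mark the replicate number, and black bars the mean and SD of each group's 3, 2 and 2 arrays. The first 9 genes have all SHP2 sh2 points below both control points, and IRF7, IRF1 and ISG15 do not.

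ISG15 itself and its conjugating enzyme were close to 0. ISG15, the ubiquitin-like modifier, read 7.34, 7.80 and 7.30 with SHP2 sh2, 7.34 and 7.37 with SHP2 sh1 and 7.54 and 7.23 with Ctrl shRNA, a difference of 0.10 ± 0.23 (-0.06 without SHP2 sh2 replicate 2). UBE2L6, which carries activated ISG15 to its targets, read 8.57, 8.88 and 8.80 with SHP2 sh2, 8.98 and 9.41 with SHP2 sh1 and 8.68 and 8.80 with Ctrl shRNA, a difference of 0.01 ± 0.22 that became -0.06 when arrays were centred on their medians and also without SHP2 sh2 replicate 2. Both genes overlapped between SHP2 sh2 and Ctrl shRNA. ISG15 holds 2 overlapping copies of the response element core, as printed above.

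The other genes of ISG15 conjugation were lower with SHP2 sh2. HERC6, a relative of HERC5 that is the main ISG15 ligase in mouse, had values of 7.59, 6.79 and 7.74 with SHP2 sh2, 9.45 and 6.63 with SHP2 sh1 and 9.27 and 9.40 with Ctrl shRNA, a difference of -1.96 ± 0.77 or 3.89-fold lower. USP18, which removes ISG15 and also dampens signalling at the interferon receptor, read 7.01, 6.50 and 7.17 with SHP2 sh2, 8.42 and 6.67 with SHP2 sh1 and 7.66 and 7.85 with Ctrl shRNA, a difference of -0.86 ± 0.50. Both were below the controls on all SHP2 sh2 arrays. HERC5, the human ISG15 ligase, read 4.83, 4.61 and 4.74 with SHP2 sh2, 5.85 and 4.30 with SHP2 sh1 and 5.63 and 4.83 with Ctrl shRNA, and its groups met at 4.83.

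PARP9 and DTX3L, which form a complex of an ADP-ribosyltransferase and a ubiquitin ligase, and PARP14, another ADP-ribosyltransferase, all had their SHP2 sh2 arrays below both controls. That order was found in 16.1% of all genes. PARP9 read 6.44, 5.77 and 6.93 with SHP2 sh2, 8.19 and 6.26 with SHP2 sh1 and 7.76 and 8.10 with Ctrl shRNA, a difference of -1.55 ± 0.59. PARP14 read 8.16, 7.35 and 8.28 with SHP2 sh2, 9.38 and 7.77 with SHP2 sh1 and 8.89 and 9.05 with Ctrl shRNA, a difference of -1.03 ± 0.51. DTX3L read 8.22, 6.79 and 8.30 with SHP2 sh2, 9.20 and 7.37 with SHP2 sh1 and 8.72 and 8.88 with Ctrl shRNA, a difference of -1.03 ± 0.65 that was -0.54 without SHP2 sh2 replicate 2.

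Among the restriction factors, proteins that act on the virus directly, 10 members were measured, and 6 of them were lower at an unadjusted limma p under 0.05, against 1.81% of all genes. BST2, or tetherin, which holds budding virus at the cell surface, had log2 values of 8.49, 7.54 and 8.0 with SHP2 sh2, 9.0 and 8.57 with SHP2 sh1 and 9.31 and 9.57 with Ctrl shRNA. It had the smallest unadjusted limma p of the list (0.00316) in this comparison, with a difference of -1.43 ± 0.32 (adjusted p = 0.667), and it was 1 of 2 members below both controls on all 5 SHP2 arrays, against 7.17% of all genes. IFITM1, a membrane protein that blocks virus entry, read 10.50, 10.10 and 9.91 with SHP2 sh2, 11.70 and 10.53 with SHP2 sh1 and 11.41 and 11.82 with Ctrl shRNA, a difference of -1.44 ± 0.38. MX1, a dynamin-like GTPase that traps viral nucleocapsids, read 7.38, 7.60 and 7.40 with SHP2 sh2, 9.96 and 8.05 with SHP2 sh1 and 9.16 and 9.47 with Ctrl shRNA, a difference of -1.86 ± 0.52 or 3.62-fold lower.

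Without SHP2 sh2 replicate 2 the differences of these 3 genes were -1.19 for BST2, -1.40 for IFITM1 and -1.93 for MX1. MX2, the related GTPase that acts on retroviruses, differed by -1.69 ± 0.55, and TRIM22, an antiviral ubiquitin ligase, by -1.26 ± 0.42. SAMD9 and SAMD9L, neighbouring genes for antiviral proteins that limit growth, differed by -1.90 ± 0.68 and -1.69 ± 0.73, and IFI16, a sensor of DNA, by -1.11 ± 0.58 (-0.64 without SHP2 sh2 replicate 2). The SHP2 sh2 arrays were below both controls in each of these 5, against 16.1% of all genes.

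RSAD2 and CMPK2 are neighbours in the genome and both act on nucleotides. RSAD2, known as viperin, was at 5.15, 5.30 and 5.16 with SHP2 sh2, 5.30 and 5.39 with SHP2 sh1 and 6.68 and 5.17 with Ctrl shRNA. Its difference of -0.72 ± 0.42 rested on Ctrl shRNA replicate 1, without which it was 0.04. CMPK2, a mitochondrial nucleotide kinase, read 6.83, 7.42 and 6.84 with SHP2 sh2, 6.86 and 7.10 with SHP2 sh1 and 7.14 and 6.86 with Ctrl shRNA, a difference of 0.04 ± 0.26 that became -0.03 when arrays were centred on their medians and -0.16 without SHP2 sh2 replicate 2. Neither gene separated the 2 groups.

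The 11 remaining members were all below 0 with SHP2 sh2, against 42.8% of all genes. In 9 of them all SHP2 sh2 arrays were below both controls, against 16.1% of all genes. IFI44L, whose protein is a feedback regulator of the response, had the most negative difference of the list: it read 8.61, 7.75 and 9.27 with SHP2 sh2, 11.27 and 8.0 with SHP2 sh1 and 10.44 and 10.72 with Ctrl shRNA, which gave -2.04 ± 0.92, or 4.10-fold lower. IFI27, a mitochondrial protein widely used to read out interferon signalling, read 8.88, 8.56 and 9.52 with SHP2 sh2, 10.74 and 9.48 with SHP2 sh1 and 10.45 and 10.55 with Ctrl shRNA, a difference of -1.51 ± 0.43. IFI6, an antiviral protein of the endoplasmic reticulum, read 10.48, 10.11 and 10.41 with SHP2 sh2, 12.13 and 10.0 with SHP2 sh1 and 11.31 and 12 with Ctrl shRNA, a difference of -1.32 ± 0.59. On each of these 3 genes the 2 groups were separate.

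EPSTI1, named for its induction in breast epithelium by stroma, had values of 5.95, 5.70 and 6.25 with SHP2 sh2, 7.18 and 5.25 with SHP2 sh1 and 6.83 and 8.12 with Ctrl shRNA, a difference of -1.50 ± 0.62. PLSCR1, a membrane lipid scramblase, read 7.82, 6.85 and 8.23 with SHP2 sh2, 9.39 and 7.01 with SHP2 sh1 and 9.02 and 9.38 with Ctrl shRNA, a difference of -1.57 ± 0.72. The differences of IFI44 (-1.77 ± 0.84, or -1.13 without SHP2 sh2 replicate 2), XAF1 (-0.96 ± 0.55), which binds the apoptosis inhibitor XIAP, and IFI35 (-0.52 ± 0.45) also came from separate groups. SP110, a nuclear body protein, differed by -0.95 ± 0.69 (-0.57 without that array), with its highest SHP2 sh2 array at 8.49 and its lowest control at 8.42. The secreted glycoprotein gene LGALS3BP differed by -0.36 ± 0.26 (-0.16 without SHP2 sh2 replicate 2), and RTP4, which helps receptors reach the membrane, by -0.27 ± 0.23.

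**Figure D3:**
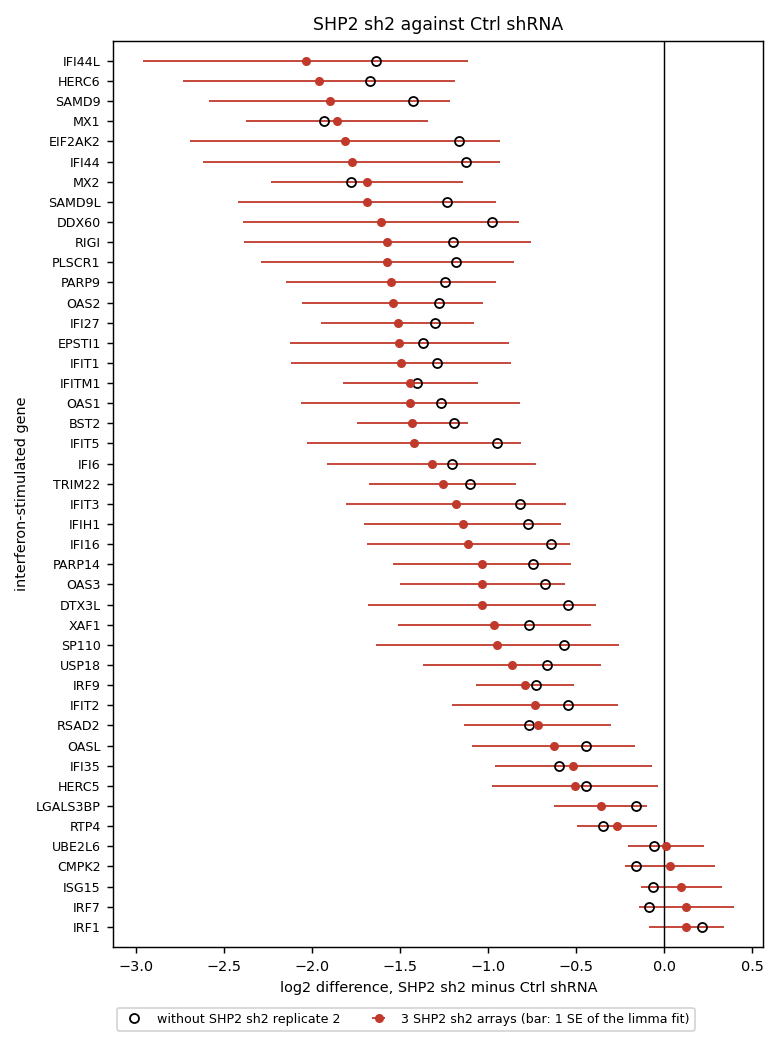
Log2 difference of SHP2 sh2 minus Ctrl shRNA (x axis) for the 44 interferon-stimulated genes (y axis, most negative at the top); filled points use all 3 SHP2 sh2 arrays with bars of 1 SE from the limma fit, and open points leave out SHP2 sh2 replicate 2. The differences run from -2.04 for IFI44L to 0.13 for IRF1, and the open points lie nearer 0 in 36 of the 44 genes.

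Members with and without the response element core in a promoter window overlapped widely in this comparison. The 25 measured members with the core had a median difference of -1.43, from -2.04 to 0.10, and 21 of the 25 had all SHP2 sh2 arrays below both controls, against 16.1% of all genes. The 12 measured members with a window and no core had a median of -0.96, from -1.96 to 0.13, and 8 of the 12 had that order. HERC6, RIGI, OAS1 and SAMD9L were among those without it, and no difference between these sets was tested.

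With SHP2 sh1, the 2 arrays of the group disagreed. On SHP2 sh1 replicate 1 the median member lay 0.24 above the control mean, and 32 of the 44 were above both controls, against 31.2% of all genes. It was the highest of all 7 arrays in 30 members, against 15.5% of all genes. On SHP2 sh1 replicate 2 the median was -1.21, and 39 members were below both controls, against 37.4% of all genes. In the brightest 25% the same order was held by 28 of 29 members and 76.7% of all genes on that array.

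In 31 members replicate 1 was above and replicate 2 below both controls, against 15.9% of all genes. The gap between the SHP2 sh1 arrays had a median of 1.67 in the 44 members, 0.64 in the brightest 25% of genes and -0.12 in all genes. It was widest in IFI44L, with log2 values of 11.27 and 8.0, and RIGI (9.48 and 6.65) and HERC6 (9.45 and 6.63) followed. The part that the shift of bright genes on SHP2 sh1 replicate 2 had in this gap was not tested beyond these values. Replicate 2 of SHP2 sh1 was lower than both SHP2 sh2 replicates 1 and 3 in 27 members, against 35.0% of all genes.

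The group comparison of SHP2 sh1 with Ctrl shRNA averaged over this disagreement. Of the 44 members, 40 had a log2 difference below 0, against 43.5% of all genes, and the median was -0.49, compared with 0.04 for all genes. In limma's test 0 members and 0% of genes passed an adjusted p of 0.05, the smallest adjusted p of a member was 0.995, and at an unadjusted p under 0.05 there were 201 genes and 0 members lower, against 0.456% of all genes. Without SHP2 sh1 replicate 1, 21 members were lower at that level, against 3.84% of all genes, and without any other single array 0 or 1. Both SHP2 sh1 arrays lay below both controls in 2 members, BST2 and SAMD9, against 12.3% of all genes, and above both in 1 member, UBE2L6, against 12.8% of all genes. BST2 differed by -0.66 ± 0.35, SAMD9 by -1.12 ± 0.75 and UBE2L6 by 0.46 ± 0.24. The median was -1.21 without SHP2 sh1 replicate 1 and 0.24 without SHP2 sh1 replicate 2.

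Set directly against each other, SHP2 sh2 was lower than SHP2 sh1 in 41 of 44 members, against 44.7% of all genes, with a median of -0.70, compared with 0.03 for all genes. MX1 had the most negative difference, -1.55 ± 0.52, followed by MX2 with -1.20 ± 0.55 and IFI27 with -1.12 ± 0.43. ISG15, IRF1 and CMPK2 were the members above 0. All SHP2 sh2 arrays lay below both SHP2 sh1 arrays in 6 members (IRF9, UBE2L6, MX1, MX2, BST2 and IFITM1), against 3.08% of all genes.

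In limma's test of this difference 0 members and 0% of genes passed an adjusted p of 0.05, with 1.00 as the smallest adjusted p of a member. At an unadjusted p under 0.05 there were 116 genes and 4 members (MX1, BST2, IFITM1 and IFI27), all lower, against 0.57% of all genes lower. That count was 27 without SHP2 sh1 replicate 2, against 2.43% of all genes, and 1 to 3 without any other single array. The direction rested on the SHP2 sh1 arrays: the median was -1.56 without SHP2 sh1 replicate 2, and 0.17 without SHP2 sh1 replicate 1.

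The mean of both SHP2 hairpins had a median difference of -0.88 from Ctrl shRNA over the 44 members, compared with 0.08 for all genes. No gene passed limma's adjusted p of 0.05 (0% of all genes), and the smallest adjusted p of a member was 0.758. At an unadjusted p under 0.05 there were 358 genes and 4 members (BST2, IFITM1, SAMD9 and EPSTI1), all lower, against 1.25% of all genes lower. That count was 30 without SHP2 sh1 replicate 1, against 4.88% of all genes, and 1 to 5 without any other single array. The median was -0.42 without SHP2 sh1 replicate 2. These comparisons share their Ctrl shRNA arrays.

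By single array, SHP2 sh2 replicate 2 was the lowest of the 7 in 27 members, against 30.7% of all genes, and its median member lay 1.73 below the control mean. The member medians of SHP2 sh2 replicates 1 and 3 were -0.95 and -0.82. The 29 members among the brightest 25% of genes had medians of -1.04 and -1.03 on these 2 arrays, and all genes of that 25% had -0.18 and -0.04. The 2 Ctrl shRNA arrays differed little, with a median SD of 0.20 over the members, compared with 0.44 for SHP2 sh2 and 1.18 for SHP2 sh1. Over all genes the median SD was 0.08 for Ctrl shRNA, 0.36 for SHP2 sh2 and 0.35 for SHP2 sh1.

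**Figure D4:**
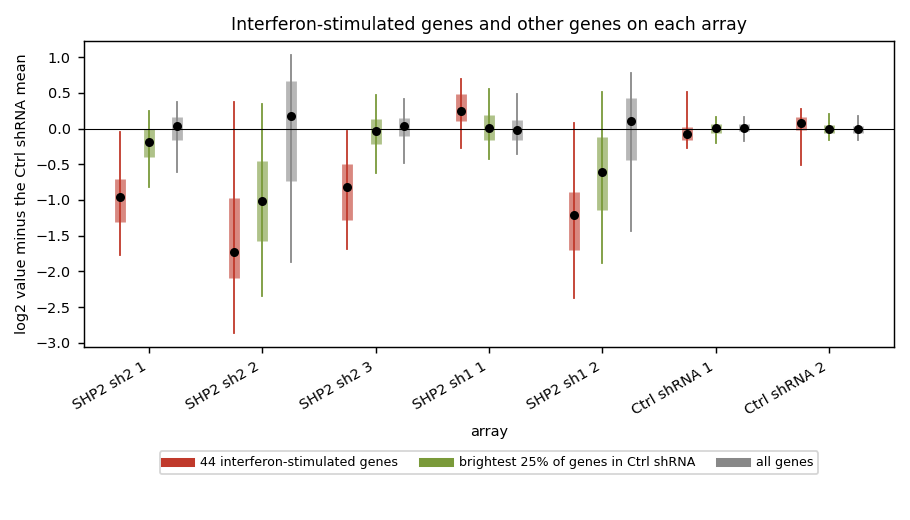
Log2 value minus the Ctrl shRNA mean (y axis) on each array (x axis) for the 44 interferon-stimulated genes (red), the brightest 25% of genes in Ctrl shRNA (green) and all genes (grey); points are medians, thick bars run from the 25th to the 75th percentile and thin lines from the 5th to the 95th. The red medians are below the green ones on the 3 SHP2 sh2 arrays and on SHP2 sh1 replicate 2, and above 0 on SHP2 sh1 replicate 1.

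Upstream of these genes are the interferon ligands. Of 13 listed, 12 were measured, with a median level of 4.08 to 4.46 on SHP2 sh2 arrays, 4.05 to 4.21 on SHP2 sh1 arrays and 3.95 to 4.04 on Ctrl shRNA arrays. IFNA2, a classical leukocyte interferon whose relatives are near-identical in sequence, read 4.18, 4.57 and 4.0 with SHP2 sh2, 4.0 and 4.24 with SHP2 sh1 and 3.92 and 3.95 with Ctrl shRNA, and IFNW1, or interferon omega, read 4.29, 4.79 and 4.15 with SHP2 sh2, 4.10 and 4.46 with SHP2 sh1 and 4.13 and 3.89 with Ctrl shRNA. The highest values were those of lambda interferons, which use a different receptor: IFNL2 read 6.79, 7.62 and 6.86 with SHP2 sh2, 6.67 and 7.07 with SHP2 sh1 and 6.63 and 6.21 with Ctrl shRNA. IFNL3, a close copy of IFNL2, read 8.25, 8.93 and 7.97 with SHP2 sh2, 7.60 and 8.78 with SHP2 sh1 and 7.87 and 7.82 with Ctrl shRNA. With SHP2 sh2, 11 of the 12 ligands had a difference above 0, against 10527 of all 18417 genes. Their median was 0.26, and 0 of 12 passed the test in either direction. The 4604 dimmest genes, with control means up to 5.74, had a median difference of 0.23 with SHP2 sh2. Whether the ligands differed from other genes of like brightness was not tested. Without SHP2 sh2 replicate 2 the median of the ligands was 0.13.

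Receptors and JAK-STAT genes differed less than the interferon-stimulated genes. Of 11 listed, 10 were measured, and all 10 had a difference below 0 with SHP2 sh2, against 42.8% of all genes. Their median was -0.41, and 0 passed the test. Their median level was 8.31 and 8.33 on the Ctrl shRNA arrays. The 4605 brightest genes, with control means from 8.17, had a median difference of -0.42, and of -0.11 without SHP2 sh2 replicate 2. The 4604 genes next in brightness had -0.03 on all SHP2 sh2 arrays. Whether the list differed from other genes of like brightness was not tested. IFNAR1, the receptor chain that binds TYK2, read 7.79, 5.89 and 8.12 with SHP2 sh2, 8.72 and 6.91 with SHP2 sh1 and 8.19 and 8.31 with Ctrl shRNA, a difference of -0.98 ± 0.78. IFNAR2, the high-affinity chain, read 7.38, 6.51 and 7.44 with SHP2 sh2, 7.93 and 7.08 with SHP2 sh1 and 7.44 and 7.66 with Ctrl shRNA, a difference of -0.44 ± 0.38. In both genes SHP2 sh2 replicate 2 was the lowest array. Without it the differences were -0.29 for IFNAR1 and -0.14 for IFNAR2, and the median of the 10 was -0.10.

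IL10RB, shared by the receptors of interferon lambda and interleukins, read 7.84, 7.14 and 7.94 with SHP2 sh2, 8.45 and 7.94 with SHP2 sh1 and 7.94 and 8.04 with Ctrl shRNA, and IFNGR1, of the interferon gamma receptor, read 9.02, 7.49 and 8.95 with SHP2 sh2, 9.56 and 8.32 with SHP2 sh1 and 9.08 and 9.12 with Ctrl shRNA. JAK1 was at 9.47, 8.34 and 9.48 with SHP2 sh2, 9.79 and 9.17 with SHP2 sh1 and 9.48 and 9.47 with Ctrl shRNA, and TYK2 at 8.36, 8.37 and 8.08 with SHP2 sh2, 8.0 and 8.75 with SHP2 sh1 and 8.43 and 8.36 with Ctrl shRNA. In these 4 genes SHP2 sh2 replicates 1 and 3 lay between -0.32 and 0.01 of the control mean.

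The negative regulators of the pathway had no common direction: 3 of 7 were below 0 with SHP2 sh2, against 42.8% of all genes. Their median was 0.15, and 0 passed the test. SOCS1, which binds and inhibits JAK kinases, read 7.62, 8.03 and 7.82 with SHP2 sh2, 7.81 and 7.88 with SHP2 sh1 and 7.21 and 7.51 with Ctrl shRNA, so that all SHP2 sh2 and SHP2 sh1 arrays were above both controls, with a difference of 0.46 ± 0.21 for SHP2 sh2. PTPN2, a phosphatase of STAT proteins, differed by -0.49 ± 0.39, PIAS1, which binds STAT proteins, by -0.41 ± 0.36 and CISH, a relative of SOCS1, by 0.32 ± 0.30. Without SHP2 sh2 replicate 2 these were -0.20, -0.11 and 0.12. Of these 4 genes only SOCS1 had SHP2 sh1 replicate 1 and every SHP2 sh2 array on the same side of both controls.

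Adaptors and kinases of nucleic acid sensing, 14 of 14 measured, had a median difference of -0.25 with SHP2 sh2, and 0 passed the test. Of the 14, 10 were below 0, against 42.8% of all genes, and without SHP2 sh2 replicate 2 the median was -0.12. STING1, the adaptor for cytosolic DNA, read 8.48, 8.36 and 8.64 with SHP2 sh2, 8.64 and 8.72 with SHP2 sh1 and 8.80 and 8.93 with Ctrl shRNA, below both controls on all 5 SHP2 arrays, a difference of -0.37 ± 0.18. TLR3, the endosomal receptor for double-stranded RNA, read 8.05, 6.94 and 8.44 with SHP2 sh2, 8.94 and 7.96 with SHP2 sh1 and 8.75 and 8.72 with Ctrl shRNA, a difference of -0.93 ± 0.49. TRIM25, the ubiquitin ligase that activates RIGI, differed by -0.55 ± 0.30, and ZBP1, a sensor of left-handed nucleic acids, by 0.45 ± 0.31. Without SHP2 sh2 replicate 2 the differences were -0.49 for TLR3, -0.27 for TRIM25 and 0.17 for ZBP1.

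A second list of interferon-stimulated genes outside the 46 held 45 genes, of which 41 were measured. With SHP2 sh2 its median difference was -0.48, compared with -1.22 for the 44 members. It had 34 genes below 0, against 42.8% of all genes, and 0 past the test, and in 22 of the 41 all SHP2 sh2 arrays lay below both controls, against 16.1% of all genes. Without SHP2 sh2 replicate 2 the median was -0.20, and 24 had that order, against 17.9% of all genes. CXCL11, a chemokine that draws T cells, read 7.52, 6.41 and 7.28 with SHP2 sh2, 8.84 and 7.09 with SHP2 sh1 and 8.85 and 8.59 with Ctrl shRNA, a difference of -1.65 ± 0.56. SP100, a nuclear body protein related to SP110, read 7.59, 7.17 and 8.11 with SHP2 sh2, 9.17 and 7.61 with SHP2 sh1 and 8.75 and 9.03 with Ctrl shRNA, a difference of -1.27 ± 0.49. IFITM2, a close relative of IFITM1 whose sequence is similar enough that probes may share signal, read 9.34, 9.14 and 9.28 with SHP2 sh2, 9.62 and 9.48 with SHP2 sh1 and 9.68 and 10.0 with Ctrl shRNA, a difference of -0.59 ± 0.19.

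In these 3 genes and in TNFSF10, all named for their small p in this comparison, the SHP2 sh2 arrays were below both controls. That order was found in 16.1% of all genes. TNFSF10, the death ligand TRAIL, read 9.26, 8.42 and 6.85 with SHP2 sh2, 8.75 and 9.32 with SHP2 sh1 and 9.79 and 10.0 with Ctrl shRNA, a difference of -1.72 ± 0.65, and there SHP2 sh2 replicate 3 and not replicate 2 was the lowest array.

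**Figure D5:**
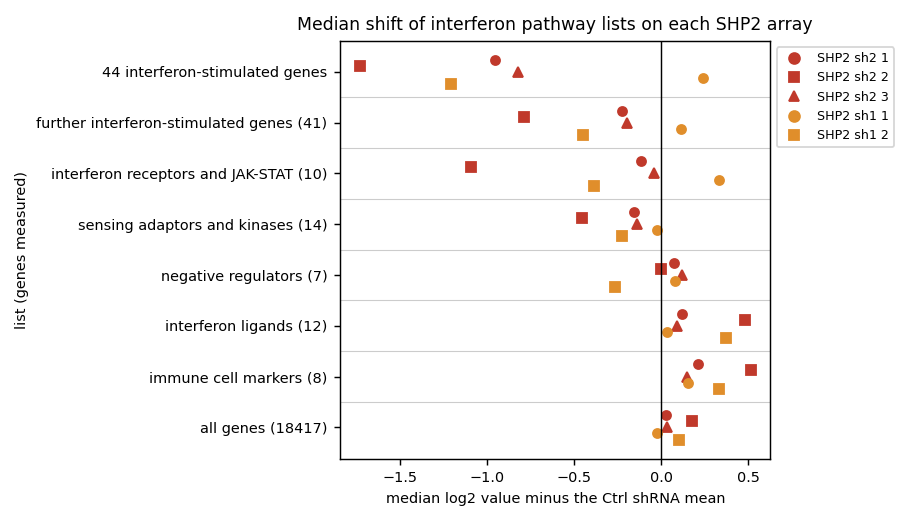
Median log2 value minus the Ctrl shRNA mean (x axis) of lists of interferon pathway genes, immune cell markers and all genes (y axis, with the number of genes measured) on each of the 5 SHP2 arrays; red marks SHP2 sh2, orange SHP2 sh1, and symbols give replicate numbers. Medians of the 44 members run from -1.73 to -0.82 with SHP2 sh2, further below 0 than any other list plotted on the same array.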

How the data were processed

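SUM159 RNA was hybridised to 7 Affymetrix Human Gene 1.0 ST arrays. RNA was isolated with RNeasy kits per the labels, whereas the methods of the study name TRIzol. The deposited values are log2 expression values that the authors made by robust multi-array averaging with the Bioconductor package oligo, whose version is not given in the sources used here.

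Of 33297 probes, 19460 carried a single gene symbol, 1754 several and 12083 were not listed in the annotation. For a gene with more than 1 probe (769 of 18417 genes), the probe of largest interquartile range was kept, and older symbols were updated by gene ID (19429 found). A linear model with 3 group means over all 7 arrays was fitted in limma 3.58.1 (R 4.3.3) with empirical Bayes moderation, two-sided tests and Benjamini-Hochberg adjustment over all 18417 genes (threshold 0.05). The code of the fit was run on simulated data with planted changes. Their spread was taken from the arrays that did not stand apart, so that run gives no measure of power on all 7 arrays. Arrays give no read depth, and their number limits the precision.

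The members and all lists were chosen with earlier results of these data known, so lists are described by counts and medians without a test. Every array is given for the transcription factors, for up to 3 members per role of smallest p in SHP2 sh2 against Ctrl shRNA, for up to 5 with the widest gap between SHP2 sh1 arrays, for up to 4 of smallest difference, and for up to 4 genes of smallest p in each further pathway list with core receptor genes. Alternatives were the mean over probes, leaving out dim genes, median centring, cyclic loess, array weights, an intensity trend, fewer arrays in the fit, a replicate block and leaving out arrays.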

Additional observations from a re-analysis of the deposited data

How the results depend on the processing

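The count of genes past the threshold for SHP2 sh2 against Ctrl shRNA was 0 in limma under all alternatives but gene-by-gene array weights, where it was 122. In the other 3 comparisons it was 0 under every alternative run. The median member difference for SHP2 sh2 against Ctrl shRNA stayed below 0 throughout and lay between -1.38 and -0.88 when 1 array was left out. With both arrays that stood apart left out it was -0.88 for SHP2 sh2 against Ctrl shRNA, 0.24 for SHP2 sh1 against Ctrl shRNA and -1.23 for SHP2 sh2 against SHP2 sh1. Leaving out 1 array gave -1.21 to 0.24 for SHP2 sh1 against Ctrl shRNA, -1.22 to -0.42 for the mean of both hairpins, and -1.56 to 0.17 for SHP2 sh2 against SHP2 sh1. The change of direction came from the 2 SHP2 sh1 arrays, of which 1 was left.

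With the replicate number as a block (replicate block), 0 genes passed in any comparison, and the median for SHP2 sh2 against Ctrl shRNA was -1.38, with 33 of 44 members and 14.7% of all genes lower at an unadjusted p under 0.05. Same-numbered arrays of SHP2 sh2 and SHP2 sh1 deviated together from their group means (correlations of 0.62 and 0.85). So did the differently numbered SHP2 sh1 replicate 1 and SHP2 sh2 replicate 3 (0.81). Same-numbered arrays of an SHP2 hairpin and the controls did not (-0.06 to 0.02). In a group of 2 arrays these deviations are mirror images, so the correlations are not separate values and cannot decide on pairing. The numbers were not taken to pair the arrays.

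Of 703 values of single members in SHP2 sh2 against Ctrl shRNA under 16 alternatives, 670 kept their direction and side of the threshold, 10 passed it with array weights, and 23 changed sign, all in 6 members; 38 members never changed sign. IRF1 was -0.0191 with the replicate block and ran from -0.0191 to 0.213 when 1 array was left out. IRF7 was -0.0358 with array weights and -0.0841 without both arrays that stood apart, and ran from -0.0841 to 0.262 with 1 array left out. ISG15 was -0.0416 and -0.0631 under the same 2 settings and ran from -0.0631 to 0.250. UBE2L6 was -0.0598 with centring, -0.126 with array weights, -0.0142 with the block and -0.0555 without both arrays, and ran from -0.0555 to 0.0984. CMPK2 was -0.0836 with cyclic loess, -0.0333 with centring, -0.154 with array weights and -0.159 without both arrays, and ran from -0.159 to 0.179. RSAD2 ran from -1.48 without Ctrl shRNA replicate 2 to 0.0396 without Ctrl shRNA replicate 1. The causes were not tested. HERC5 was too dim for the filter and has no value there. The values used hold no background signal or detection call per probe, so no lower limit of detection is given.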
